A study of Homo sapiens with 8 samples.

Results

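TP63 and 8 further transcription factors that set epithelial identity were followed in breast epithelial cells made to express the long non-coding RNA MALINC1. The 9 genes were chosen by name (TP63, KLF4, KLF5, GRHL1, GRHL2, GRHL3, ELF3, SOX9 and OVOL1), and each had 1 row among the 13842 genes measured. The response of TP63 set the lines apart. It rose 8.22-fold with MALINC1 in MCF10A cells, where it was low with the empty vector. In DCIS.COM cells, where it was high with the empty vector, its change did not pass the test. GRHL3 rose 2.70-fold and 2.87-fold in the respective lines, and ELF3 fell in both.

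p63, the product of TP63, maintains basal cells of stratified and glandular epithelia. A promoter upstream yields TAp63, with a transactivation domain, and an internal promoter yields ΔNp63, the form usual in basal cells. KLF4 and KLF5 are zinc-finger factors, the former linked to barrier formation and exit from the cell cycle and the latter to growth of basal cells. The grainyhead-like factors GRHL1, GRHL2 and GRHL3 act on junction and barrier genes, OVOL1 is a zinc-finger repressor that restrains mesenchymal programmes, ELF3 is an epithelium-specific ETS factor, and SOX9 is tied to stem and progenitor cells of the breast.

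RNA-seq was performed on MCF10A, an immortalized non-tumorigenic breast line, and on DCIS.COM, a line of the same lineage used as a model of ductal carcinoma in situ. Each line was stably transduced with the lentiviral vector pLOC-MALINC1 or with pLOC-empty and selected with blasticidin, which gave 4 groups of 2 libraries. MCF10A cells were grown with horse serum, epidermal growth factor, hydrocortisone, insulin and cholera toxin, whereas DCIS.COM cells received horse serum without these additions, so that line and medium cannot be told apart. Nothing in the labels says that replicates were separate cultures, and p-values therefore measure the spread between these libraries, which may be technical. Whether the transduced cells were pools or clones is not given in the sources used here.

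The libraries held between 20604377 and 37550457 reads on genes, and the 9 factors drew 48 to 7454 reads each per library. RN7SL1 and RN7SL2, small cytoplasmic RNAs, took 8.22% to 15.73% of reads. Replicates correlated across genes with r from 0.9959 to 0.9969, although they differed by more than counting noise (chi-square per degree of freedom 3.28 to 20.44). The chi-square includes RN7SL1 and RN7SL2, which took 11.46% and 8.22% of reads in the libraries of DCIS.COM pLOC-MALINC1, the group at 20.44. MALINC1 itself increased from 1.25 to 12.5 CPM (read counts scaled to library size) in MCF10A (log2 fold change 3.27, adjusted p = 3.97e-08 in limma) and from 1.25 to 21.8 CPM in DCIS.COM (4.04, 6.93e-09). KRT5, a basal keratin, and KRT8, a luminal keratin, were present in every group (KRT5 at 1070 to 8730 CPM and KRT8 at 813 to 1850 CPM as group means), while the leukocyte gene PTPRC had no row.

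The promoters of TP63, GRHL3 and ELF3 are shown because these genes gave the response that differed most between lines and the shared rise and fall. TP63 spans chr3:189349178-189615065 on the plus strand in GRCh37, with 14 annotated transcripts, 12 of them coding. Of these, 6 begin in the region of the upstream start at 189349178 and 8 in that of the internal start at 189507448, 158270 bp downstream. RefSeq (GRCh38.p14) promoter windows matched 6 of the 9 genes; SOX9, OVOL1 and GRHL2 had no entry. Each line gives the 250 bases before a start, and capitals mark the letters of a searched motif; the internal TP63 window was read from GRCh37 (chr3:189507198-189507447) and the others from RefSeq, on the plus strand.
TP63 upstream start, chr3:189631139-189631388: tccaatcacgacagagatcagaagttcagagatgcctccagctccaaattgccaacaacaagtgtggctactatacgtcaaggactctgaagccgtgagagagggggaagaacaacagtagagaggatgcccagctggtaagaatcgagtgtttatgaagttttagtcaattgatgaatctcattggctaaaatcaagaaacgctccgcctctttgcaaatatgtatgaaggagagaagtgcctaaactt
TP63 internal start, chr3:189507198-189507447: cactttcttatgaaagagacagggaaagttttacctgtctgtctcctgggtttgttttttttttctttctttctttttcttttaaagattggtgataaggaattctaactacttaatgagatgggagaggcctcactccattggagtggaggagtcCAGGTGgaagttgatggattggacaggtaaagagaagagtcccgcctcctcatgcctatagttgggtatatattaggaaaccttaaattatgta
GRHL3, chr1:24319107-24319356: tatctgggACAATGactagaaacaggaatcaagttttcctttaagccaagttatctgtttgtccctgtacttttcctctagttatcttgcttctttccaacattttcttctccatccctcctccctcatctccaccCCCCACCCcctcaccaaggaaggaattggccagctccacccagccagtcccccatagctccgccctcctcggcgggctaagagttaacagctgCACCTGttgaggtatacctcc
GRHL3, chr1:24322790-24323039: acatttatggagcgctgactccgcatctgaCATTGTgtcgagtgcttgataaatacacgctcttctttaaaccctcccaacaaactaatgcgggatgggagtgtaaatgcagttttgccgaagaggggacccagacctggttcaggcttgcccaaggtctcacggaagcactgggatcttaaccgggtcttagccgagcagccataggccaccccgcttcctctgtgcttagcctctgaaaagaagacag
ELF3, chr1:202010337-202010586: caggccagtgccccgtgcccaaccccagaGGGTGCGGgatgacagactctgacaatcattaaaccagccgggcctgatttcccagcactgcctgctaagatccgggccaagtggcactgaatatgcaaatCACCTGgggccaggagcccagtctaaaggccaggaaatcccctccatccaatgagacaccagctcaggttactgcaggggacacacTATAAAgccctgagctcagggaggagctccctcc

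Both strands were searched for the motifs named here, and no matches overlapped in these windows. The internal TP63 window held the E-box CAGGTG, bound by ZEB and SNAI repressors, 94 to 89 bases before the start, and the upstream TP63 window held no searched motif. The first GRHL3 window held a SOX motif (ACAATG), a KLF motif (CCNCACCC) and an E-box, and the other held a SOX motif on the minus strand. ELF3 carried a KLF motif, an E-box and a TATA box (TATAAA), the latter 34 to 29 bases before the start. These letters are common: the E-box occurred in 17.5% of 35116 promoter windows of the same length, the KLF motif in 16.7%, the SOX motif in 9.29% and the TATA box in 10.7%. None of the 5 windows held the AP-1 (TGANTCA, 6.57%), GRHL (AACNGGTT, 1.49%), ETS (CNGGAAG, 28.3%) or OVOL (CCGTTA, 2.45%) motifs.

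With MALINC1, few of the 9 factors changed over 2-fold, and GRHL3 was the factor called in each line. A change was called at an adjusted p below 0.01 (limma, Benjamini-Hochberg over all 13842 genes) and over 2-fold. In MCF10A, 3 of 9 factors were called, all higher (TP63, GRHL3 and SOX9), against 5.5% of all genes, 2.99% higher and 2.51% lower. In DCIS.COM, 2 of 9 were called, both higher (GRHL3 and OVOL1), against 4.53% of all genes, 1.44% higher and 3.08% lower. At any fold, 3 factors rose and 1 fell in MCF10A, where 21.5% of all genes rose and 18.1% fell (39.6% together). In DCIS.COM 7 rose and 1 fell, where 16.4% of all genes rose and 16.7% fell (33.2% together). The median log2 fold change over the 9 was 0.091 in MCF10A and 0.48 in DCIS.COM, beside 0.009 for all genes in DCIS.COM and a median of zero in MCF10A. In bulk RNA, fewer cells of a type and less RNA per cell cannot be told apart.

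**Figure D1:**
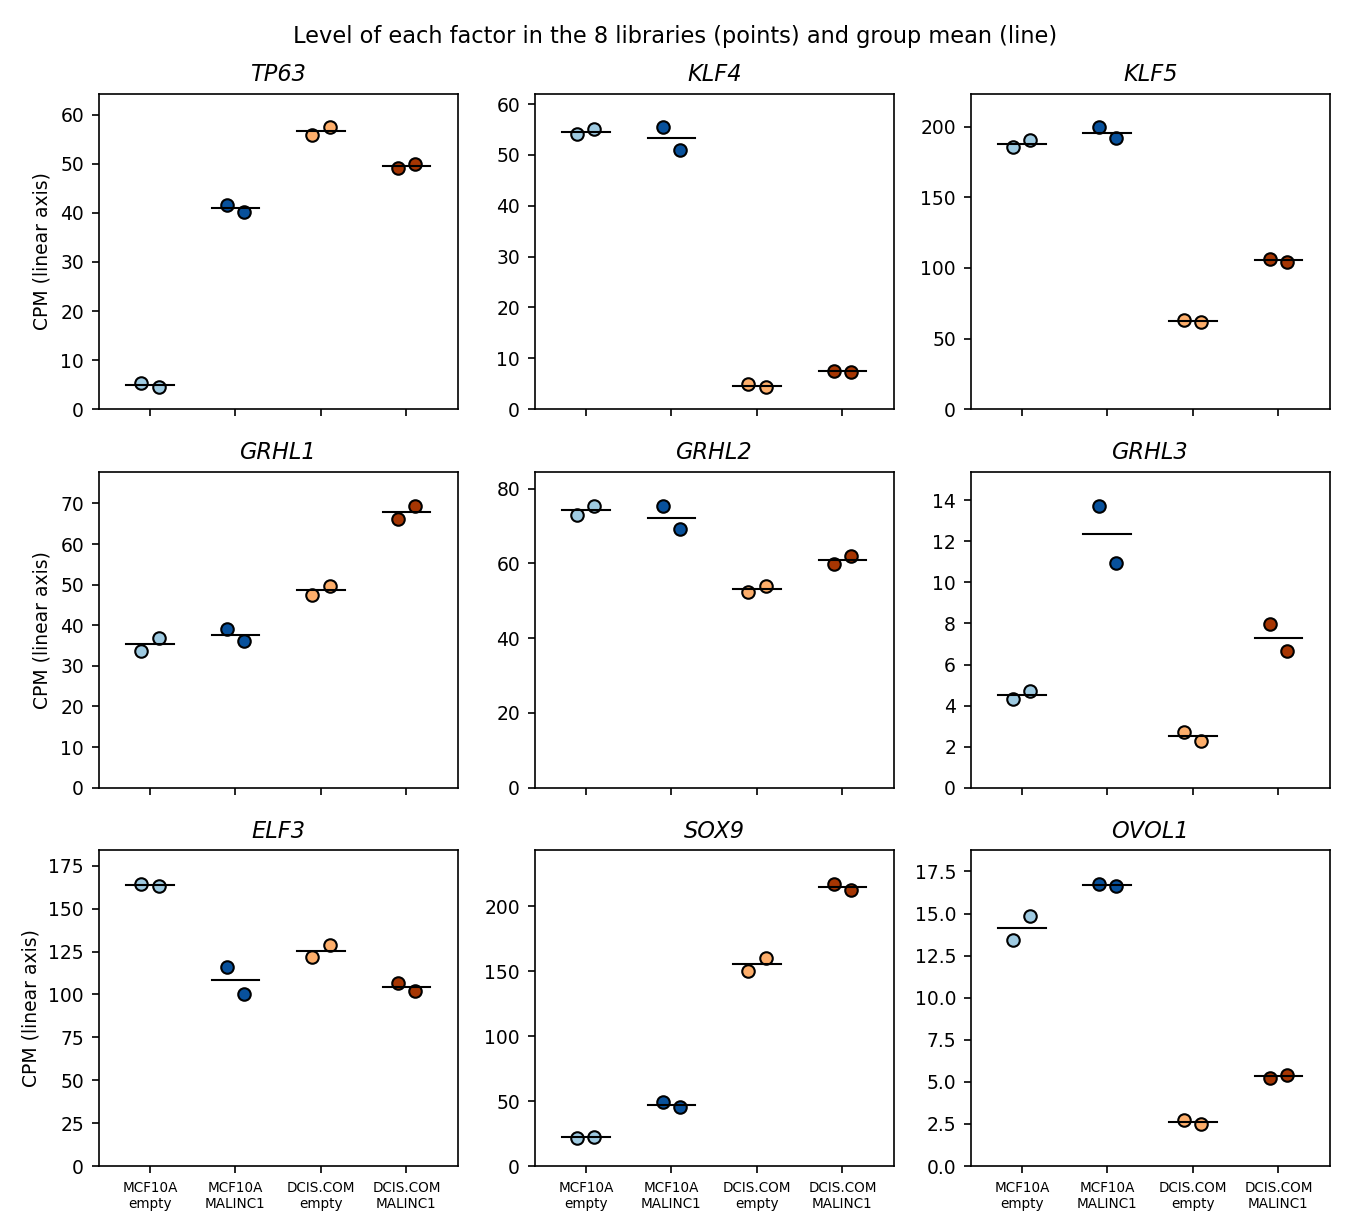
CPM on linear axes from 0 for each of the 9 factors in the 8 libraries (points), grouped by line and vector, with the mean of each group of 2 as a line. TP63 was low only in the MCF10A pLOC-empty libraries (5.24 and 4.60 CPM), and KLF4 and OVOL1 were lower in all DCIS.COM libraries than in all MCF10A libraries.

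TP63 stood at 5.24 and 4.60 CPM in the MCF10A pLOC-empty libraries and at 41.7 and 40.1 CPM in the pLOC-MALINC1 libraries. In DCIS.COM it stood at 55.8 and 57.4 CPM with pLOC-empty and at 49.1 and 49.98 CPM with pLOC-MALINC1. The pair of MCF10A pLOC-empty libraries was thus far below the other 6, and no groups overlapped. The log2 fold change was 3.04 ± 0.065 (SE; adjusted p = 1.08e-11) in MCF10A. In DCIS.COM it was -0.19 ± 0.065 (adjusted p = 0.0291), which missed the threshold (95% interval -0.33 to -0.05); it passed at any fold in 2 of 21 alternatives, with voom weights (adjusted p = 0.00226) and without MCF10A pLOC-empty replicate 2 (0.00998). The responses differed by 3.23 on the log2 scale (adjusted p = 1.07e-10 in limma), and 9.2% of all genes were called for such a difference over 2-fold, 3.98% higher in DCIS.COM and 5.22% lower. At any fold the difference passed for 7 of the 9 factors and for 35.9% of all genes. Counts per gene do not separate TAp63 from ΔNp63.

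SOX9, the progenitor-linked factor (chr17:70117161-70122557 in GRCh37, plus strand), rose in both lines from very different levels. Its libraries read 21.9 and 22.6 CPM with pLOC-empty and 49.4 and 45.1 CPM with pLOC-MALINC1 in MCF10A. In DCIS.COM they read 150.4 and 160.5 CPM with pLOC-empty and 217 and 212 CPM with pLOC-MALINC1. Every DCIS.COM library therefore lay above every MCF10A library. The rise was 2.12-fold in MCF10A (log2 1.08 ± 0.049, adjusted p = 5.23e-09) and 1.38-fold in DCIS.COM (0.47 ± 0.049, adjusted p = 9.1e-06), and the responses differed (-0.62, adjusted p = 1.48e-05).

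GRHL3 (chr1:24526048-24690972, plus strand), the grainyhead-like factor of barrier repair, was the factor called over 2-fold in both lines. It read 4.31 and 4.69 CPM in MCF10A pLOC-empty and 13.7 and 10.95 CPM in MCF10A pLOC-MALINC1. In DCIS.COM the values were 2.71 and 2.29 CPM against 7.95 and 6.68 CPM. Within each line the groups did not overlap. The log2 fold changes were 1.43 ± 0.147 (adjusted p = 5.83e-06) and 1.52 ± 0.147 (adjusted p = 4.35e-06), and a difference between lines was not detected (0.09, 95% interval -0.36 to 0.54, adjusted p = 0.746).

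The other grainyhead-like factors moved less. GRHL1 (chr2:10091822-10142405, plus strand) read 33.8 and 36.8 CPM against 39.1 and 36.0 CPM in MCF10A, groups that overlapped, and 47.5 and 49.7 CPM against 66.2 and 69.4 CPM in DCIS.COM, groups that did not. It rose 1.39-fold in DCIS.COM (log2 0.48 ± 0.058, adjusted p = 2.72e-05) and gave 0.09 in MCF10A (adjusted p = 0.206). GRHL2 (chr8:102504667-102681954, plus strand), a guardian of epithelial junction genes, read 73.0 and 75.4 CPM against 75.3 and 69.1 CPM in MCF10A and 52.4 and 54.0 CPM against 59.7 and 61.8 CPM in DCIS.COM. Its 1.14-fold rise in DCIS.COM passed the test (0.19 ± 0.047, adjusted p = 0.00547) but not when any of the 4 DCIS.COM libraries was left out (0.17 to 0.22, adjusted p 0.0165 to 0.0491). The difference between lines was 0.39 for GRHL1 (adjusted p = 0.00178) and 0.23 for GRHL2 (adjusted p = 0.0122). For GRHL1 it missed the threshold without pLOC-empty replicate 2 or pLOC-MALINC1 replicate 2 of MCF10A, or without pLOC-empty replicate 1 or pLOC-MALINC1 replicate 2 of DCIS.COM (adjusted p 0.0109 to 0.0123). For GRHL2 it passed in 7 of 20 alternatives (lowest adjusted p = 0.00194), among them the fit without pLOC-MALINC1 replicate 1 of MCF10A (0.295, adjusted p = 0.00454).

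KLF4 and KLF5 rose in DCIS.COM, and neither passed the test in MCF10A. KLF4 (chr9:110247133-110252763, minus strand) read 54.0 and 55.0 CPM against 55.4 and 51.0 CPM in MCF10A. In DCIS.COM it read 4.90 and 4.30 CPM with pLOC-empty and 7.54 and 7.33 CPM with pLOC-MALINC1, a 1.61-fold rise (log2 0.69 ± 0.078, adjusted p = 1.66e-05). The rise left KLF4 in DCIS.COM far below its level in any MCF10A library. KLF5 (chr13:73629114-73651679, plus strand) read 185 and 190.2 CPM against 199 and 192 CPM in MCF10A and 63.1 and 61.5 CPM against 107 and 104 CPM in DCIS.COM, a 1.69-fold rise in the latter (0.76 ± 0.036, adjusted p = 7.61e-09). The difference between lines was 0.72 for KLF4 (adjusted p = 0.000173) and 0.70 for KLF5 (adjusted p = 3.1e-07).

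OVOL1, the repressor (chr11:65554534-65564685, plus strand), read 13.4 and 14.9 CPM against 16.7 and 16.7 CPM in MCF10A. In DCIS.COM it read 2.75 and 2.48 CPM against 5.24 and 5.41 CPM. The groups did not overlap in either line, but the log2 fold change of 0.24 in MCF10A missed the threshold (adjusted p = 0.0729). That change passed at any fold in 1 of 21 alternatives, with voom weights (0.248, adjusted p = 0.00945). The 2.01-fold rise in DCIS.COM (log2 1.01 ± 0.105, adjusted p = 7.99e-06) lay at the fold threshold: without pLOC-empty replicate 2 of DCIS.COM it was 0.935, and without pLOC-MALINC1 replicate 2 of DCIS.COM 0.985. The responses differed by 0.77 (adjusted p = 0.000996). Antisense genes cover 1039 nt of OVOL1 exons, 277 nt of KLF4 exons, up to 158 nt of GRHL1 exons and 50 nt of GRHL2 exons. Whether counting used strand is not given in the sources used here.

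ELF3, the ETS factor (chr1:201977073-201986311, plus strand), was the factor that fell. It read 164 and 163 CPM with pLOC-empty and 116 and 100.4 CPM with pLOC-MALINC1 in MCF10A, and 122 and 129 CPM against 106 and 102 CPM in DCIS.COM. The groups did not overlap in either line. The fall was 1.52-fold in MCF10A (log2 -0.60 ± 0.057, adjusted p = 2.97e-06) and 1.20-fold in DCIS.COM (-0.27 ± 0.057, adjusted p = 0.00214). In DCIS.COM the adjusted p rose to 0.0349 without pLOC-empty replicate 2 and to 0.0275 without pLOC-MALINC1 replicate 2. The difference between lines (0.33, adjusted p = 0.00464) was not called when any of 6 single libraries was left out, the exceptions being MCF10A pLOC-MALINC1 replicate 1 and DCIS.COM pLOC-empty replicate 2 (adjusted p 0.0111 to 0.0299 for the 6).

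**Figure D2:**
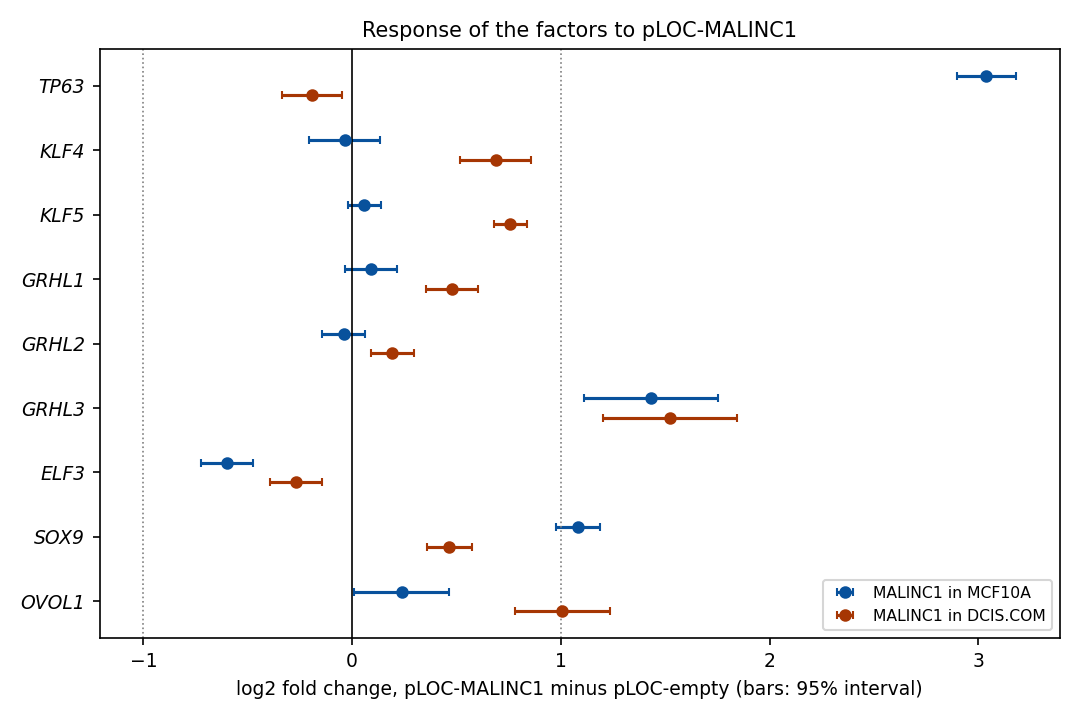
Log2 fold change of each factor, pLOC-MALINC1 minus pLOC-empty, in MCF10A (blue) and DCIS.COM (brown), with 95% intervals as bars and dotted lines at a 2-fold change. TP63 lies at 3.04 in MCF10A and -0.19 in DCIS.COM, while GRHL3 lies at 1.43 and 1.52.

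The lines differed in most of these factors with the empty vector as well. With pLOC-empty, 5 of the 9 were called between DCIS.COM and MCF10A, where 28.6% of all genes were (15.6% higher and 13.0% lower): TP63 was 11.4-fold and SOX9 6.96-fold higher in DCIS.COM, and KLF4 was 11.7-fold, OVOL1 5.29-fold and KLF5 3.01-fold lower. With pLOC-MALINC1, 3 of the 9 were called (KLF4, SOX9 and OVOL1), where 26.6% of all genes were (14.4% higher and 12.2% lower). At any fold 9 and 8 factors passed, beside 73.9% and 73.0% of all genes. TP63 was then 1.21-fold higher in DCIS.COM (adjusted p = 0.0017 in limma). That value passed 0.01 in the fit of all libraries but not without MCF10A pLOC-MALINC1 replicate 2 (adjusted p = 0.0193) or without either DCIS.COM pLOC-MALINC1 library (0.0107 and 0.0166). With pLOC-MALINC1, GRHL3 missed 0.01 without MCF10A pLOC-MALINC1 replicate 1 (0.0112), and GRHL2 missed it in 2 of 21 alternatives, with log2 down to -0.066 (adjusted p up to 0.198). ELF3 was 1.30-fold lower in DCIS.COM with pLOC-empty, and with pLOC-MALINC1 no difference was detected (log2 -0.05, 95% interval -0.17 to 0.07). GRHL1 was the factor whose gap was wider with MALINC1, at 1.38-fold and 1.80-fold. A change of the gap is the same contrast as the difference between the responses given above.

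**Figure D3:**
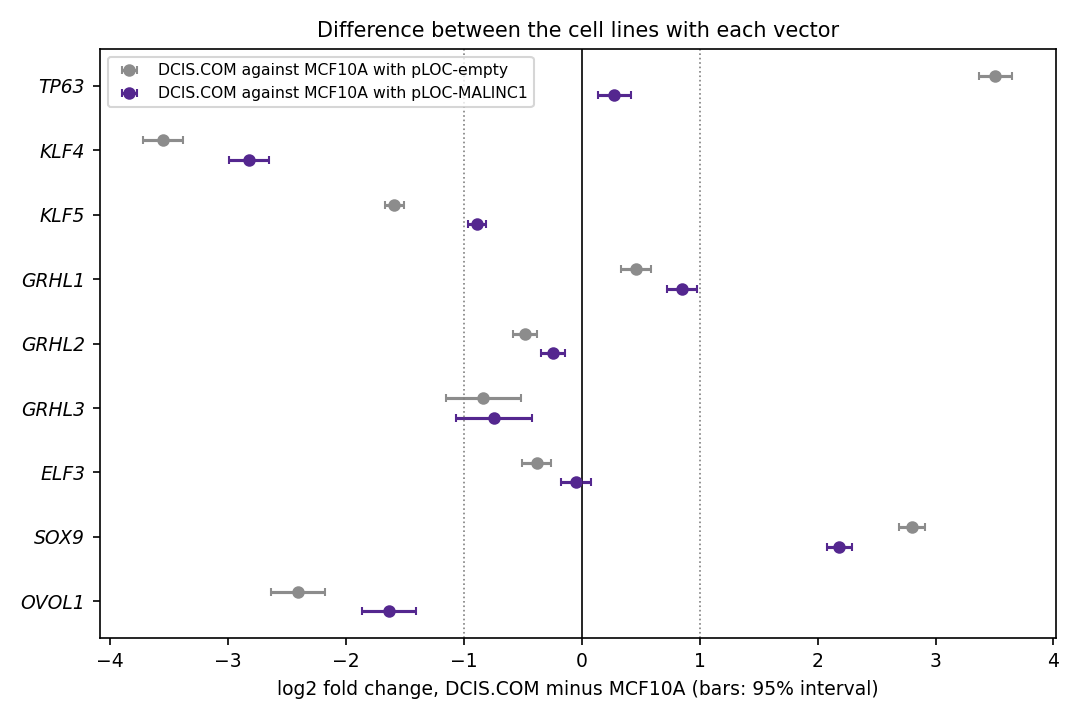
Log2 fold change between lines, DCIS.COM minus MCF10A, for each factor with pLOC-empty (grey) and with pLOC-MALINC1 (purple), with 95% intervals as bars. The gap in TP63 is 3.51 with pLOC-empty and 0.28 with pLOC-MALINC1, whereas KLF4 stays at -3.55 and -2.83.

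Levels of different genes were compared per kilobase of exonic length of the canonical transcript. Reads were counted per gene, so the order depends on the transcript whose length is used. For TP63 that transcript begins at the upstream start. In MCF10A pLOC-empty the order of levels was KLF5 (56.1 CPM per kb), ELF3 (52.7), KLF4 (18.6), GRHL2 (14.2), GRHL1 (9.89), SOX9 (5.66), OVOL1 (4.74), GRHL3 (1.59) and TP63 (0.996), with no neighbours overlapping. With MALINC1, TP63 was the seventh at 8.27 CPM per kb, above OVOL1 (5.59) and GRHL3 (4.36). In DCIS.COM pLOC-empty, ELF3 (40.5) and SOX9 (39.6) led with overlapping ranges, TP63 was the fifth (11.5), and GRHL3 (0.882) and OVOL1 (0.876) overlapped at the end. In DCIS.COM pLOC-MALINC1, SOX9 led (54.6), TP63 was the sixth (10.0), and GRHL3 (2.58) and KLF4 (2.53) overlapped.

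The genes whose profile over the 8 libraries lay nearest to TP63, by root mean square distance of centred log2 CPM among 11366 genes, were SEMA3A (0.271), DUSP6 (0.306) and HBEGF (0.327). SEMA3A, a secreted guidance cue, had group means of 3.89 and 26.8 CPM in MCF10A without and with MALINC1 and 30.8 and 24.8 CPM in DCIS.COM. DUSP6, a phosphatase of ERK, had 13.7, 65.0, 132 and 111 CPM in the same order. HBEGF, a ligand of the EGF receptor, had 2.07, 18.3, 40.6 and 20.3 CPM. For the other factors the nearest gene was EPGN for KLF4 (0.128), C6orf132 for KLF5 (0.086), ARFGEF3 for GRHL1 (0.049), PPP1R14C for GRHL2 (0.035), CEACAM6 for GRHL3 (0.194), ERMAP for ELF3 (0.057), WWTR1 for SOX9 (0.112) and MYO5B for OVOL1 (0.134). Factors that vary little have small distances by construction, so the distances do not compare across factors.

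Genes listed as targets of ΔNp63 rose more often than they fell in MCF10A. The gene lists here and below were chosen with earlier results of these data known, so their counts are no independent check. Of 34 measured of 36 listed, 7 were called higher and 1 lower, beside 2.99% and 2.51% of all genes, and at any fold 24 rose and 3 fell, beside 21.5% and 18.1%. The list median was 0.537, or 0.501 with genes at the floor of 3 reads set to their bound. In either line, such counts take no account of whether ΔNp63 raises or lowers each gene, so they do not measure p63 activity. RAB38, a vesicle GTPase, went from 1.66 to 25.9 CPM (log2 3.92), and CLCA2, a basal cell adhesion gene, from 10.6 to 101 CPM (3.25). FGFBP1, a carrier of FGF, went from 98.7 to 338 CPM (1.78), and the basal keratin KRT14 from 1450 to 2920 CPM (1.01). IGFBP3, a binding protein of insulin-like growth factors, fell from 302 to 83.1 CPM (-1.86).

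In DCIS.COM, none of the 34 were called higher and 4 were called lower, while at any fold 10 rose and 14 fell, with a median of 0.039. Of all genes in DCIS.COM, 1.44% were called higher and 3.08% lower, and 16.4% rose and 16.7% fell at any fold. CLCA2 fell from 34.0 to 12.8 CPM (log2 -1.40), CEBPD, a C/EBP factor, from 20.7 to 8.49 CPM (-1.28), and TNS4, a focal adhesion protein, from 18.3 to 8.78 CPM (-1.05). KRT14 fell from 33.0 to 21.9 CPM (-0.59, adjusted p = 1.45e-07 in limma). FGFR2 had an estimate of 1.28 that missed the threshold (29.8 to 72.6 CPM, adjusted p = 0.0233); it was named after its values were seen. For the difference between the responses, DCIS.COM minus MCF10A, 1 of the 34 was called higher and 11 lower, beside 3.98% and 5.22% of all genes.

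**Figure D4:**
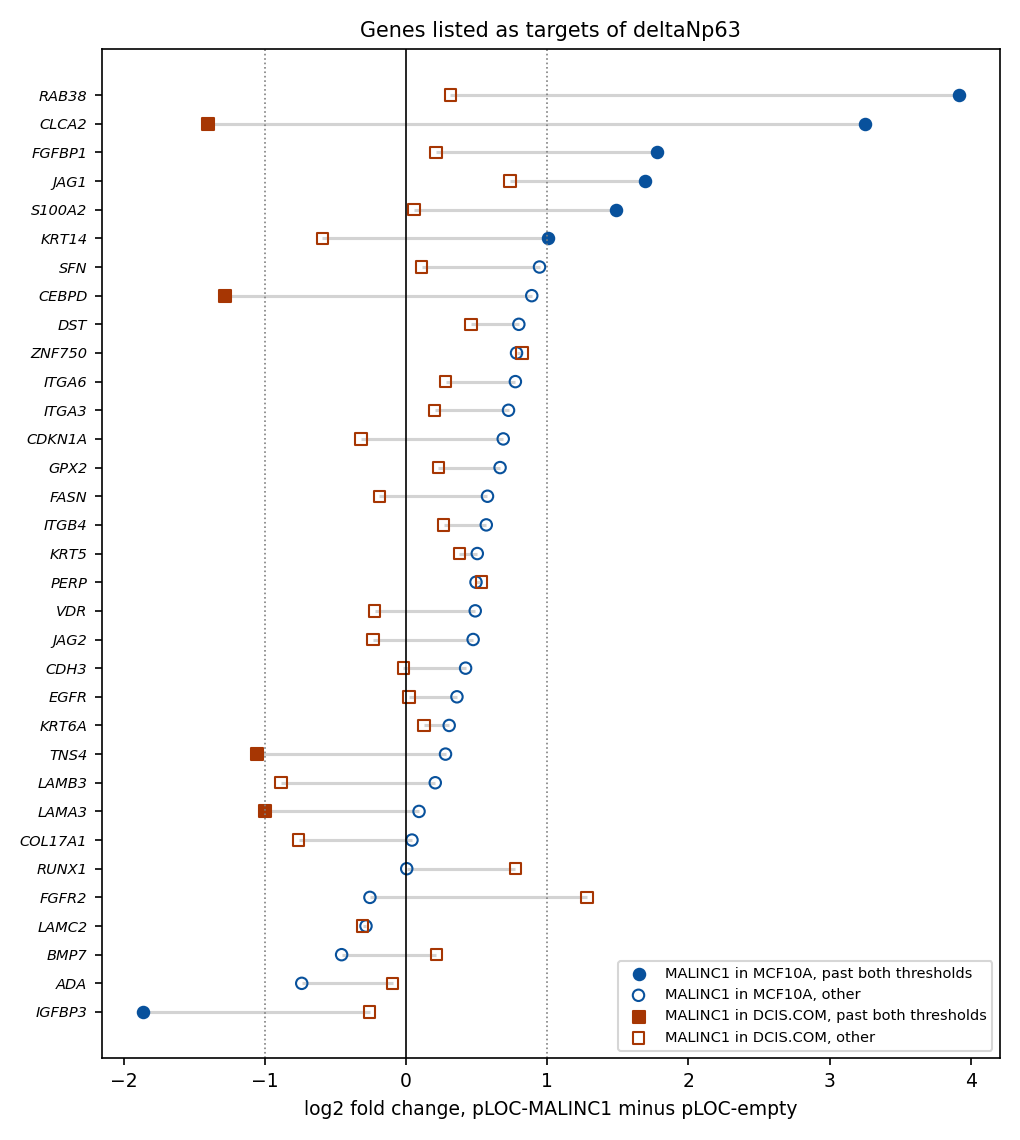
Log2 fold change, pLOC-MALINC1 minus pLOC-empty, of 33 of the 34 measured genes listed as ΔNp63 targets in MCF10A (circles) and DCIS.COM (squares), sorted by the value in MCF10A. Filled symbols are past both thresholds, 7 in MCF10A and 4 in DCIS.COM, and CLCA2 lies at 3.25 and -1.40.

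Targets of KLF4 and KLF5 gave calls in both directions. Of 19 measured of 20, 4 were called higher and 1 lower in MCF10A, and 5 higher and 2 lower in DCIS.COM (list medians 0.361 and 0.021). Of all genes, 2.99% were called higher and 2.51% lower in MCF10A and 1.44% and 3.08% in DCIS.COM, shares that also stand beside the list counts that follow. The cornified envelope genes SPRR1B (7.62 to 37.5 CPM in MCF10A and 3.46 to 7.57 CPM in DCIS.COM) and SPRR1A (3.17 to 9.45 and 0.825 to 3.61 CPM) rose in both lines. KRT4, a keratin of non-keratinizing epithelia, rose in DCIS.COM from 0.662 to 5.93 CPM (log2 3.05) and TNFRSF11A, the receptor RANK, from 10.9 to 23.1 CPM (1.08). PTGES, the prostaglandin E synthase, fell there from 32.6 to 6.16 CPM (-2.39), and LAMA3, a laminin chain, from 311 to 155 CPM (-1.002). The other calls, named after their values were seen, were MYC (108 to 246 CPM) and KRT19 (log2 -1.01, 1.44 CPM with MALINC1) in MCF10A and SPRR2A (2.55 to 5.35 CPM) in DCIS.COM, with FGFBP1 in MCF10A given above.

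Targets of the GRHL, OVOL and ELF3 factors, mainly junction genes, showed smaller changes. Like the KLF4 and KLF5 list, this list pooled targets of several factors without regard to direction. Its median therefore does not describe the targets of a single factor. Of 29 measured of 30, none passed both thresholds in MCF10A, where 12 rose and 5 fell at any fold in limma, and 1 did in DCIS.COM, where 7 rose and 5 fell (list medians 0.123 and 0.065). At any fold 21.5% of all genes rose and 18.1% fell in MCF10A, and 16.4% and 16.7% in DCIS.COM. The call in DCIS.COM was a fall. For the SOX9 targets, 9 of 15 had a row, with medians of -0.11 (-0.299 with genes at the floor set to their bound) and 0.012. In MCF10A, 1 was called lower, and in DCIS.COM 2 were called higher and 1 lower, including CD24 (83.9 to 171 CPM, 1.02) and the stem cell marker PROM1 (5.48 to 0.557 CPM, -3.14). ACAN, a cartilage proteoglycan, was at least 20.3-fold lower with MALINC1 in MCF10A, and in DCIS.COM it was higher by at least 4.67-fold, against a floor of 3 reads per library; it was named after its values were seen.

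Among 24 measured of 39 other members of these families, SOX15 was called higher in MCF10A (13.7 to 34.3 CPM, log2 1.32) and 1 member was called in each direction in DCIS.COM. These were KLF7 (1.96 to 4.23 CPM) and KLF8 (1.14 to 0.337 CPM), named after their values were seen. The list medians were -0.06 and 0.022. Of 27 measured of 32 other epithelial and mammary factors, 3 were called higher in MCF10A and 2 higher and 1 lower in DCIS.COM, with medians of -0.075 (-0.102 with genes at the floor set to their bound) and 0.264. In DCIS.COM, ID4 rose from 1.04 to 7.10 CPM (2.70) and TFAP2C fell from 57.6 to 28.4 CPM (-1.02). Further calls, named after their values were seen, were HOPX (0.596 to 2.60 CPM) and CEBPA (at least 1.59-fold higher, from no reads) in MCF10A and POU2F3 (0.329 to 0.923 CPM) in DCIS.COM.

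OVOL2, a relative of OVOL1, gave -0.09 in MCF10A (adjusted p = 0.273 in limma) and rose by 0.59 in DCIS.COM (7.67 to 11.5 CPM, adjusted p = 2.38e-05). EHF, a relative of ELF3, gave -0.07 and -0.02 (adjusted p = 0.253 and 0.784 in limma). ZNF750, an epidermal factor downstream of p63, was near the floor in MCF10A and read 0.849 and 1.56 CPM without and with MALINC1 in DCIS.COM (0.82, adjusted p = 0.0767). TP73, a relative of TP63, had no row.

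Of the factors of epithelial-mesenchymal transition, 9 of 14 had a row, and 1 was called in each direction in MCF10A. The list medians were -0.331 in MCF10A and 0.25 in DCIS.COM (0.128 with genes at the floor set to their bound). HMGA2, a chromatin protein, rose from 4.37 to 23.4 CPM (log2 2.41), and ZEB2, a repressor of CDH1, fell from 5.48 to 1.90 CPM (-1.50, adjusted p = 0.00172 in limma). In DCIS.COM, SNAI2, the repressor known as Slug, was the gene called, falling from 16.2 to 8.04 CPM (-1.004), and it fell by 0.33 in MCF10A (86.9 to 69.2 CPM). ZEB1 gave -0.20 in MCF10A and 0.65 in DCIS.COM, and neither passed 0.01 (adjusted p = 0.446 and 0.0221). None of the 15 regulators of the factors' proteins was called over 2-fold in either line, while 9 in MCF10A and 6 in DCIS.COM passed 0.01 at any fold (medians 0.111 and 0.077), where 39.6% and 33.2% of all genes did.

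Markers of cell types moved beside these factors, and their part in the results was not tested. The summed level of 12 measured of 13 basal markers, TP63 among them, was 19700 to 19800 CPM in MCF10A pLOC-empty and 27100 to 27800 CPM with MALINC1, and 6090 to 6230 against 6820 to 6990 CPM in DCIS.COM. Of the 12, 2 were called higher and 1 lower in MCF10A and 1 in each direction in DCIS.COM. At any fold 8 rose and 3 fell in MCF10A, and 4 rose and 5 fell in DCIS.COM. The list medians were 0.464 (0.505 with genes at the floor set to their bound) and -0.229. Of all genes, 21.5% rose and 18.1% fell at any fold in MCF10A, and 16.4% and 16.7% in DCIS.COM. Abundant genes weigh most in the sums, such as KRT5 (1070 to 1390 CPM in DCIS.COM). NGFR, a basal marker, had at most 1 read per library in MCF10A and 276 and 206 CPM in the DCIS.COM groups. The 10 measured of 14 luminal markers summed to 4640 to 4770 against 3900 to 4250 CPM in MCF10A and 3840 to 3890 against 3710 to 3820 CPM in DCIS.COM. Within the MCF10A sum, CD24 fell from 3270 to 2330 CPM. At any fold 3 luminal markers rose and 2 fell in MCF10A, and 3 rose and 1 fell in DCIS.COM (list medians -0.023 and 0.021). The 4 measured of 11 mesenchymal markers summed to 1600 to 1660 against 404 to 431 CPM in MCF10A and 625 to 643 against 472 to 484 CPM in DCIS.COM; FN1, fibronectin, fell from 1520 to 368 CPM in MCF10A (log2 -2.05), and CDH2 and COL1A1 fell as well (-1.51 and -1.14). In DCIS.COM, FN1 rose from 40.0 to 72.0 CPM (log2 0.85). The 3 measured of 10 leukocyte and endothelial markers summed to 15 to 15.3 against 13.7 to 14.4 CPM in MCF10A and 10.3 to 11.3 against 8.07 to 8.21 CPM in DCIS.COM, where PECAM1 fell from 6.64 to 0.132 CPM and the other 2 rose at any fold (list median 0.711).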

How the data were processed

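RNA-seq of 8 libraries in 4 groups was analysed. Per the paper's methods and the submitters' processing notes, the authors aligned reads to hg19 with Rsubread, counted them per gene with featureCounts and normalized with edgeR; counter settings and versions are not given in the sources used here. The authors deposited log2 values, which are CPM with a prior count of 1.49 to 2.56 reads per library, for 13842 genes. Whole reads were recovered for 100.0% of values within 0.01, and CPM without the prior count were computed from them. Reads on genes ranged from 20604377 to 37550457 per library.

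The deposited log2 values were fitted with limma 3.58.1 (R 4.3.3) as 4 group means with a trended empirical Bayes step (4 residual and 7.98 prior degrees of freedom), and p-values were adjusted by Benjamini-Hochberg over all 13842 genes. The script was tested on simulated data. The planned count models were not run, and voom weights on the recovered reads took their place. Fold changes use the deposited scale, whose prior count understates changes of low genes. Groups came from the sample titles. Gene structures came from GENCODE on GRCh37 and promoters from RefSeq on GRCh38.p14.

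The 9 factors and the gene lists were chosen with earlier results of these data known. Named genes were the 9 factors, the 3 largest rises and falls per list and line among called genes with at least 5 CPM, direct partners and opponents of the factors, the nearest profiles (3 for TP63 and 1 for each other factor) and MALINC1; genes outside the rule are said to be so or illustrate a count or a check. The alternatives were other pseudocounts, filters, scalings, models and thresholds, and leaving out each library. A few genes that the rule names are not reported here.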

Additional observations from a re-analysis of the deposited data

Results flagged for a closer look

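For 7 of the 9 factors the response to MALINC1 differed between lines in the interaction test (adjusted p below 0.01, limma). As the log2 fold change in DCIS.COM minus that in MCF10A, the difference was -3.23 for TP63, -0.62 for SOX9, 0.72 for KLF4, 0.70 for KLF5, 0.77 for OVOL1, 0.39 for GRHL1 and 0.33 for ELF3. Beside these 7 factors, 35.9% of all genes passed the interaction test at any fold. The call held in 15 of 20 alternatives for GRHL1, in 13 of 20 for ELF3 and in 20 of 20 for the other 5. Among these alternatives, leaving out the filter or scaling recovered reads with TMM factors gave the same count over all genes as the main fit (4972). Those alternatives are therefore not separate checks. SOX9 rose in both lines and ELF3 fell in both, so these differences are of size. In the main fit, KLF4, KLF5, GRHL1 and OVOL1 passed the test for a response in DCIS.COM and not in MCF10A. TP63 passed it in MCF10A and not in DCIS.COM. Lines and media cannot be told apart. With 2 libraries in each group, single outlying libraries were not searched for.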

How the results depend on the processing

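The counts of factors called over 2-fold in MCF10A (3), for the difference between lines (1) and between lines with pLOC-empty (5) and with pLOC-MALINC1 (3) stayed within 1.5 times under every alternative run other than the any-fold rule. In DCIS.COM the count of 2 became 1 with a pseudocount of 0.5 or 1 CPM, where OVOL1 was at 0.904 and 0.807, and ranged from 1 to 2 when single libraries were left out. With an adjusted p below 0.01 at any fold, 8 factors were called in DCIS.COM, 7 for the difference, 9 between lines with pLOC-empty and 8 with pLOC-MALINC1. Fold changes that turned sign were never past the threshold: in MCF10A, KLF4 (0.024) and GRHL2 (0.021) without pLOC-MALINC1 replicate 2, within -0.095 to 0.024 and -0.103 to 0.021 over the libraries left out; the GRHL3 difference at a pseudocount of 1 CPM (-0.024) and over the libraries left out (-0.073 to 0.252); and ELF3 between lines with pLOC-MALINC1 under quantile normalization (0.071), with totals free of RN7SL1 and RN7SL2 (0.13) and over the libraries left out (-0.155 to 0.055). The cause was not tested. Without the 2-fold rule, KLF4 in DCIS.COM was not called when that comparison was fitted alone (adjusted p = 0.0127, limma), nor was GRHL2 (0.0166), and without the trend the calls of GRHL2 (0.0399) and ELF3 (0.0387) there were lost, as were TP63 between lines with pLOC-MALINC1 (0.0107) and the differences between lines in GRHL1 (0.0224) and ELF3 (0.0542). Between lines with pLOC-MALINC1, the call of GRHL2 was lost under quantile normalization (0.0336) and with totals free of RN7SL1 and RN7SL2 (0.198). Totals free of RN7SL1 and RN7SL2 moved the median of all genes between lines to 0.1353 with pLOC-empty and 0.1845 with pLOC-MALINC1, from 0.0311 and 0.0055. Over all genes, a pseudocount of 1 CPM gave 416 calls in place of 761 in MCF10A and 368 in place of 627 in DCIS.COM; at any fold, fitting each comparison alone gave 3101 in place of 5485 and 2559 in place of 4592, and leaving out the trend gave 2915 in DCIS.COM.

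No shared deviation of same-numbered libraries was detected (r of deviations -0.067 in MCF10A and 0.035 in DCIS.COM). The labels do not say whether they were handled together, and the check cannot tell. With the replicate block the counts were 3, 2, 1, 5 and 3, as without it. The planned edgeR and DESeq2 alternatives on recovered reads were not run; voom weights and median-of-ratios scaling, chosen after seeing the data, kept every count of called factors. When a group was left with 1 library, it was assumed to vary like the other groups. Depth limits GRHL3, OVOL1 and KLF4 most, which drew few reads in DCIS.COM.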
